A study of Mus musculus with 68 samples.

Results

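The genes described here are 3 D-type cyclins (Ccnd1, Ccnd2, Ccnd3), 2 E-type cyclins (Ccne1, Ccne2), 4 inhibitors of cyclin-dependent kinases (Cdkn1a, Cdkn1b, Cdkn2a, Cdkn2c) and the transcription factor E2f1, 10 genes of the 18194 named on the array. They were chosen by name, as the core of the step by which a cell leaves G1, and each was read through its probe set with the highest mean. RNA came from spontaneous mammary tumours of mice that all carried the MMTV-PyMT transgene, in which a mouse mammary tumour virus promoter drives polyoma middle T in the mammary epithelium. Animals were offspring of (NZB x PyMT) hybrids backcrossed to FVB, and the labels give no age or sex and name no treatment. The 68 Affymetrix arrays form 1 group with no tumour-free arrays. The values below are from 56 arrays of 56 animals, those whose mean over the 18S ribosomal RNA control probe sets was below 8 (log2). The highest of these lay at 6.84 and the lowest of the 12 arrays left out at 8.97. Pieces of tumour hold other cells besides tumour cells, so fewer cells of a type and less RNA per cell cannot be told apart.

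D-type cyclins bind Cdk4 and Cdk6 in G1, and these kinases phosphorylate the retinoblastoma protein, which then lets go of E2F factors. Freed E2F switches on genes for DNA replication and the E-type cyclins, whose partner Cdk2 completes the phosphorylation and starts S phase. Cdkn2a and Cdkn2c encode INK4 inhibitors, which bind Cdk4 and Cdk6, and Cdkn2a also encodes Arf, a separate protein that stabilises p53. Cdkn1a (p21) and Cdkn1b (p27) bind cyclin-kinase complexes, and Cdkn1a is a classical p53 target. In mammary tissue cyclin D1 is needed for the full growth of the gland, and middle T acts through Src, PI3 kinase and Ras signalling, which reach cyclin D and the inhibitors.

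RefSeq (GRCm38.p6) gave promoter windows of 300 bases, 250 before to 50 after the start, for 7 of the 10 genes; Ccnd1, Ccnd2 and Ccne2 were not listed. The windows were searched on both strands for the E2F-type letters TTTCCCGC, TTTCGCGC, TTTGCCGC and TTTGGCGC, which 744 of all 32851 windows held (2.26%), or 704 of 27025 genes (2.60%). Of the 7 genes, 1 held a match, Cdkn2a, in the window of its upstream start, at position -99 from the start. By list, 9 of 21 DNA replication genes (42.9%), 5 of 9 genes of the pocket protein and E2F family (55.6%) and 1 of 25 mitosis genes (4%) held a match. The absence of these letters says only that they are not in the window. The window listed for E2f1 reads in part as protein-coding sequence of the gene. Letters further upstream of E2f1 were therefore not searched, and its lack of a match does not cover them. The windows of Ccne1 and E2f1 are shown because these genes moved with the mitotic genes, and that of Cdkn2a for its match, all on the minus strand, written 5′ to 3′ along the gene, with the matched letters in capitals.
Ccne1, chr7:38107441-38107740: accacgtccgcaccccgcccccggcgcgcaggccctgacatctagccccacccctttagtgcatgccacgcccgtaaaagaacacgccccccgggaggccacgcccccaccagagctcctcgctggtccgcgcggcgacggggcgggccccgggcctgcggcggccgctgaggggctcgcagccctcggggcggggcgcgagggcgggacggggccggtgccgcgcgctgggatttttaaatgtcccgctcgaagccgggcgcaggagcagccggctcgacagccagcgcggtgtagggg
E2f1, chr2:154569377-154569676: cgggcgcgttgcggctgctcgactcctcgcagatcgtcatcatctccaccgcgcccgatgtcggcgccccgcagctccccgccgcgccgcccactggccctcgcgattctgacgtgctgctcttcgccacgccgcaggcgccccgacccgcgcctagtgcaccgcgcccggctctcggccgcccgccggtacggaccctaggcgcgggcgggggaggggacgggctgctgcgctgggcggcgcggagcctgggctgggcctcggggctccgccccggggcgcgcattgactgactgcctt
Cdkn2a upstream start, chr4:89294570-89294869: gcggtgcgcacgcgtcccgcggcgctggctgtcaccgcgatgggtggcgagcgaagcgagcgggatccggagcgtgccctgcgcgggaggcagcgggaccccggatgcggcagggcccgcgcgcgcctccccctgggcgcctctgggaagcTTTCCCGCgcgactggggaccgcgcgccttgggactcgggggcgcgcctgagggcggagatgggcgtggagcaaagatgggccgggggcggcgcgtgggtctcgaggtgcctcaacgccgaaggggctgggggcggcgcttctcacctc

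Besides the labels, the values themselves split the arrays into sets, in each of which many probe sets on many chromosomes divide the arrays in the same way; these sets are not study groups. Set 1 held 39 of the 56 arrays, set 3 held 9 and set 4 held 8, and sets 3 and 4 were marked by 44 and 121 probe sets. Set 3 held all 8 arrays whose title ends in R (the labels do not explain this mark), and set 4 held animal numbers of the upper range (4000 and above) only. Values within set 1 alone are given beside many of the results. Of the markers used to check the tissue, all 10 luminal epithelial genes and all 7 basal epithelial genes lay above the filter. Testing was limited to genes with a 95th percentile above 5.42, the median over all values, 12562 genes in number with 9 of the 10 described here among them.

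Ccnd1, the D-type cyclin best known from breast tumours, had values of 9.08 at the lowest, 9.72 at the median and 10.28 at the highest (log2, probe set 1417420_at, n = 56). Its SD of 0.27 was larger than that of 64.6% of tested genes, whose median SD was 0.23. In array set 1 the mean was 9.62 ± 0.24 (SD, n = 39), against 9.94 ± 0.20 (n = 9) in set 3 and 9.94 ± 0.27 (n = 8) in set 4. Ccnd2, the D-type cyclin needed for granulosa cell growth in the ovary, ranged from 6.05 through a median of 7.56 to 10.39 (probe set 1416122_at). Its SD of 0.78 was larger than that of 97.0% of tested genes. The tumours of animals 3569 and 3854R, at 10.39 and 10.15, stood apart from the third highest, animal 3572, at 8.77. Ccnd3, the remaining D-type cyclin, ranged from 7.92 through 8.58 to 9.22 (probe set 1415907_at, SD 0.27). Its values lay at 7.92 to 8.89 in set 1, 8.07 to 8.35 in set 3 and 8.75 to 9.22 in set 4. The sets were found from the values of these same arrays, and how many other genes differ between them in this way was not counted.

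Ccne1, an activator of Cdk2, had values of 6.58, 7.07 and 7.91 at the lowest, median and highest tumour (probe set 1441910_x_at, SD 0.30). Ccne2, its close relative, had 5.25, 6.28 and 7.32 (probe set 1422535_at) and an SD of 0.41, larger than that of 85.4% of tested genes. The highest Ccne1 tumours were those of 4966, 3854R and 5000, and the highest Ccne2 tumours those of 3854R, 2421 and 4966. E2f1, which drives S phase genes, had 5.62, 5.92 and 7.04 (probe set 1431875_a_at, SD 0.27). Its high end came from array set 4, with a mean of 6.45 ± 0.34 (SD, n = 8), against 5.89 ± 0.17 (n = 39) in set 1 and 5.89 ± 0.12 (n = 9) in set 3.

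Cdkn1a, the p53-responsive inhibitor, ranged from 7.91 through 8.65 to 10.66 (probe set 1424638_at). Its SD of 0.60 exceeded that of 94.1% of tested genes, and the tumour of animal 3572 was highest, followed by 2703 at 9.87 and 4975 at 9.82. Cdkn1b, an inhibitor that is largely controlled by protein turnover, had 7.79, 8.76 and 9.66 (probe set 1434045_at, SD 0.39). Its mean was 8.57 ± 0.33 (SD, n = 39) in set 1, 8.93 ± 0.21 (n = 9) in set 3 and 9.19 ± 0.33 (n = 8) in set 4. Cdkn2c, the INK4 inhibitor p18, had 7.76, 8.25 and 9.15 (probe set 1416868_at, SD 0.33). Cdkn2a was dim, with 3.32, 3.96 and 5.89 (probe set 1450140_a_at), and it was the member that did not pass the filter. Its value exceeded the median of all values in 2 tumours, with 5.89 in 3890R and 5.42 in 3854R, followed by 3290 at 5.39. The probe set is counted under Cdkn2a as a whole, and INK4a and Arf were not told apart.

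**Figure D1:**
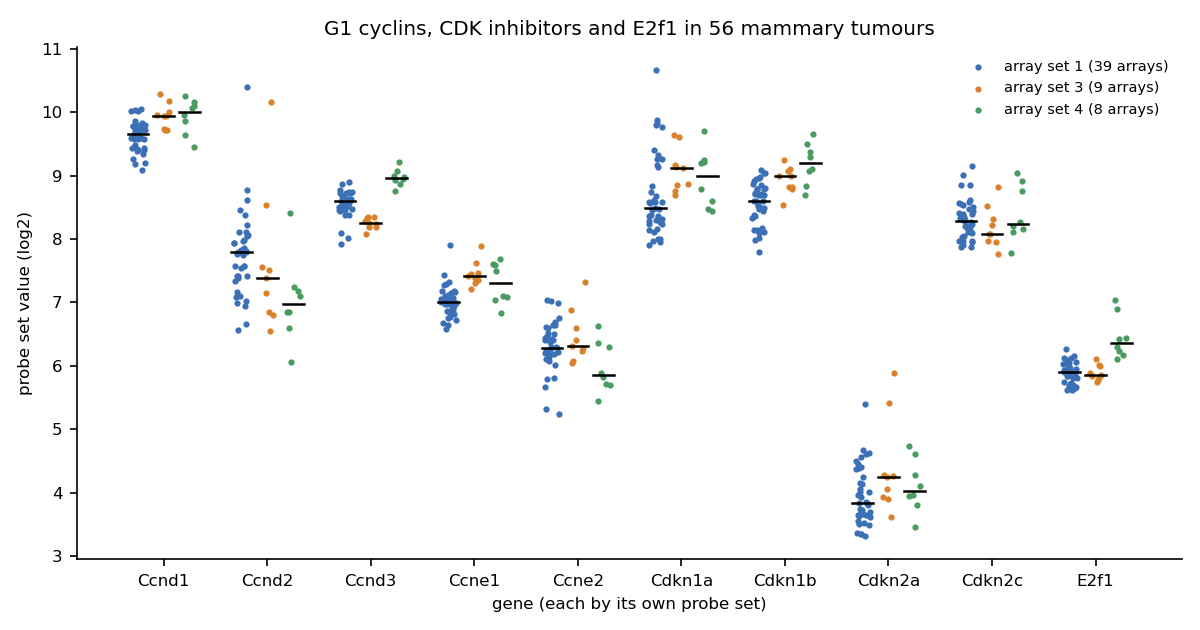
Probe set values (log2, vertical axis) of the 10 genes in the 56 tumours, with points coloured by array set and bars at the median of each set. Ccnd2 has 2 tumours above 10, and Cdkn1a has 1 at 10.66. Ccnd3, Cdkn1b and E2f1 are shifted upwards in array set 4, and Ccnd1 in sets 3 and 4, against set 1. Heights of different genes are not comparable because each is read by its own probe set.

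The 10 genes had 25 probe sets, 20 of them above the filter. The other probe sets of Ccnd2 followed the one used closely where they were bright, with r of 0.982, 0.972 and 0.898 for 1430127_a_at, 1455956_x_at and 1434745_at over 56 arrays. For Ccnd1, 1448698_at had a mean of 9.65 against 9.72 for the one used and r of 0.80 with it, while 1417419_at had r of 0.365. Over all 68 arrays 1448698_at has a higher mean than 1417420_at, and Ccnd1 did not pass on the mitosis score described next with either, with a slope of 0.017 for 1417420_at and 0.015 for 1448698_at (log2 per SD, limma adjusted p = 0.776 and 0.798). The probe sets of Ccnd3 disagreed, since 1438805_at had r of 0.333 and 1444323_at r of -0.432 with the one used. For Cdkn1b the dim 1419497_at had r of 0.0319 with the one used. Ccne1, Cdkn1a and E2f1 each had a further probe set that followed the one used, with r of 0.788, 0.801 and 0.772. For E2f1 this probe set, 1417878_at, had r of 0.504 in set 1. The dim 1447840_x_at of E2f1 did not follow, with r of 0.201 with the one used over 56 arrays.

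The first question was which of these genes were higher in tumours with more mitotic transcripts. A mitosis score was made as the mean z-score of 28 mitosis genes, led by Bub1, Cenpa, Cdk1 and Bub1b, and scaled to an SD of 1; none of the 10 genes is in it. Ccne2, Ccne1 and E2f1 were higher where the score was higher, and the D-type cyclins and the CDK inhibitors did not pass the test. That is 3 of the 9 tested genes in the higher direction and 0 in the lower, where limma called 16.1% of all tested genes higher and 9.62% lower (25.7% in either direction, Benjamini-Hochberg adjusted p below 0.05). The median slope was 0.056 for the 9 genes and 0.0011 for all tested genes, and in set 1 alone it was -0.0084 and -0.0039.

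Ccne2 rose by 0.32 ± 0.035 (log2 per SD of the score, SE, n = 56, limma adjusted p = 1.16e-10). Pearson's r was 0.774 and Spearman's rho 0.735, each with a two-sided permutation p of 1e-05, the smallest that 100000 draws can give, and r was 0.704 without the 2 arrays farthest from the median score. Within the sets r was 0.900 in set 1 (rho 0.853, permutation p = 1e-05 for each), 0.887 in set 3 (rho 0.767, exact permutation p = 0.00326 and 0.0214) and 0.823 in set 4 (rho 0.833, exact permutation p = 0.01 and 0.0154). At the ends of the score, animals 3289, 4958 and 3572 had Ccne2 at 5.25, 5.44 and 5.31, and animals 4966, 5000 and 3854R, with the highest scores, had 7.03, 6.62 and 7.32.

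Ccne1 rose by 0.19 ± 0.031 (limma adjusted p = 2.61e-06), with r of 0.640 (permutation p = 1e-05), rho of 0.550 (permutation p = 4e-05) and r of 0.569 without 2 arrays. Within the sets r was 0.649 in set 1 (rho 0.60, permutation p = 6e-05 and 0.00013), 0.871 in set 3 (rho 0.80, exact permutation p = 0.00502 and 0.0138) and 0.901 in set 4 (rho 0.929, exact permutation p = 0.000174 and 0.00223). E2f1 rose by 0.13 ± 0.032 (limma adjusted p = 0.00115), with r of 0.492 (permutation p = 0.0003), rho of 0.450 (permutation p = 0.00053) and r of 0.478 without 2 arrays. Within the sets r was 0.477 in set 1 (rho 0.450, permutation p = 0.00193 and 0.00409), 0.593 in set 3 (rho 0.467, exact permutation p = 0.0894 and 0.213) and 0.734 in set 4 (rho 0.571, exact permutation p = 0.0371 and 0.151). These are 3 of 20 relations computed, 10 genes with each of 2 scores. With scores for T and NK cells, macrophages, fibroblasts, adipocytes and muscle as terms in the fit, Ccne2 and Ccne1 kept slopes of 0.34 and 0.21, while E2f1 had 0.11 and no longer passed (adjusted p = 0.0592).

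The 6 other tested genes had adjusted p-values of 0.115 to 0.962. The 95% interval of the slope was -0.057 to 0.090 for Ccnd1, -0.096 to 0.047 for Ccnd3 and -0.047 to 0.16 for Cdkn1b. For Ccnd2 it was wider, -0.20 to 0.22, and for Cdkn1a it was -0.25 to 0.064. Cdkn2c had a slope of 0.089 ± 0.043 (adjusted p = 0.115). In array set 1 alone the slopes of Ccnd2, Ccnd3 and Cdkn1a were -0.21, -0.072 and -0.22 and did not pass (adjusted p = 0.163, 0.0960 and 0.115). For Ccnd2 r was -0.313 in set 1, 0.795 in set 3 (rho 0.383, exact permutation p = 0.0224 and 0.312) and 0.370 in set 4. Ccnd3 and Cdkn1a had r of 0.190 and 0.306 in set 3, and -0.165 and 0.206 in set 4. With the cell type scores as terms, Cdkn1a did pass as lower, with a slope of -0.29 (adjusted p = 0.00470). With the 12 arrays of high 18S signal added, Ccnd1 had a slope of 0.22 and passed (adjusted p = 6.78e-06). Cdkn2a, fitted without the filter, had an interval of -0.10 to 0.18.

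**Figure D2:**
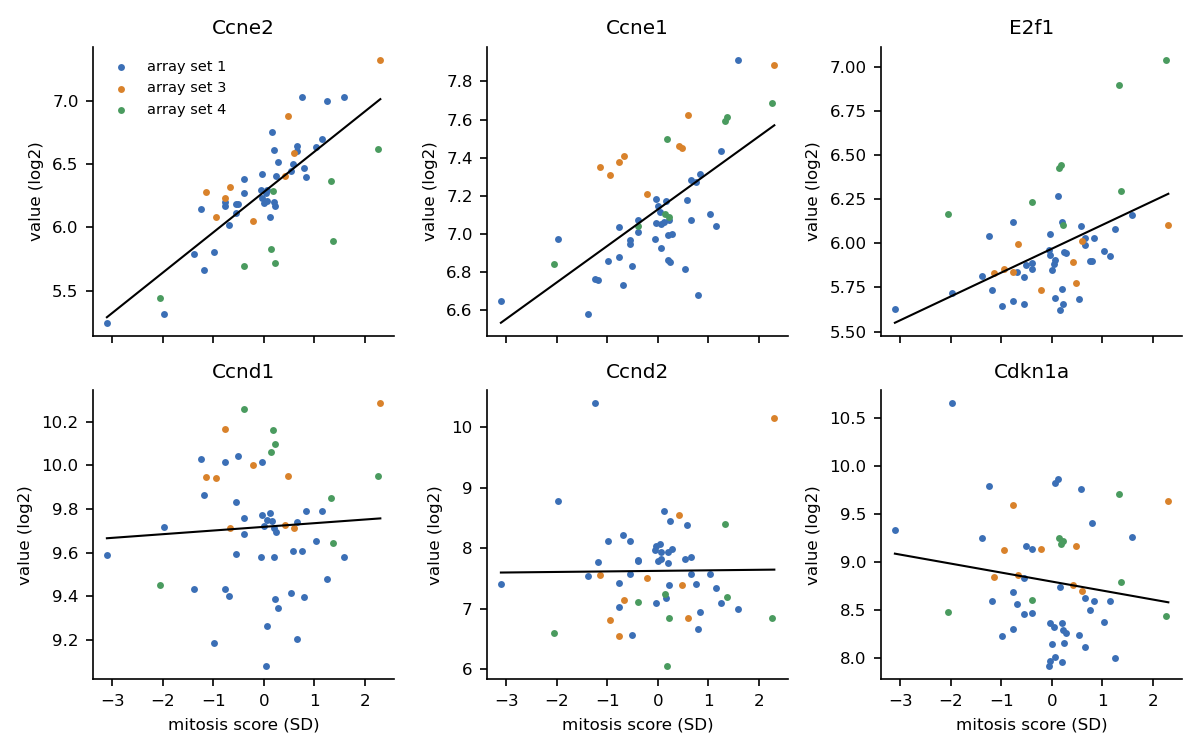
Values (log2, vertical axes) of 6 of the genes against the mitosis score (in SD, horizontal axis) in the 56 tumours, coloured by array set, with the least-squares line. Ccne2, Ccne1 and E2f1 slope upwards by 0.32, 0.19 and 0.13 per SD, and Ccnd1, Ccnd2 and Cdkn1a have slopes of 0.017, 0.0089 and -0.094.

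A score of 25 DNA replication genes, which follows the mitosis score closely (r = 0.946, rho = 0.916, permutation p = 1e-05 for each, the smallest possible), called the same 3 genes. Ccne2, Ccne1 and E2f1 rose by 0.33, 0.20 and 0.12 (limma adjusted p = 3.50e-12, 1.41e-06 and 0.00731), where 15.7% of tested genes were called higher and 7.86% lower (23.6% in all). In array set 1 alone E2f1 had 0.068 and did not pass (adjusted p = 0.0565). There Ccnd2 and Ccnd3 passed as lower, with slopes of -0.27 and -0.086 (adjusted p = 0.0492 and 0.0360), against a background of 11.9% of genes higher and 4.24% lower. For Ccnd2 r was -0.406 in set 1 (rho -0.289, permutation p = 0.0129 and 0.0741). It was positive in set 3, at 0.829 (rho 0.517, exact permutation p = 0.0189 and 0.162, r = 0.148 without 2 arrays), and 0.332 in set 4. Ccnd3 had r of -0.437, 0.410 and -0.0523 in sets 1, 3 and 4. On the mitosis score in set 1 the 3 genes called were again Ccne2, Ccne1 and E2f1, with 11.6% of genes higher and 5.75% lower. The slopes were also compared between the animal number ranges, upper (15 arrays) and lower (41). Ccne2 had slopes of 0.27 in the upper and 0.38 in the lower range, Ccne1 0.24 and 0.15, and E2f1 0.19 and 0.077. In the limma test of the difference itself no tested gene was called (0%), and 407 of 12534 genes had an unadjusted p below 0.05.

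The partners of these genes in the pathway were read from fixed lists. Among kinases and phosphatases of G1, 5 of 7 rose with the mitosis score and 0 fell: Cdc25a, the phosphatase that activates Cdk2, by 0.17, Cdk4 by 0.15, the activating kinase Cdk7 by 0.089 and Cdk2 itself by 0.082, with Mnat1, the assembly factor of Cdk7, at 0.075 (adjusted p = 0.235 in set 1 alone). Ccnh, the cyclin partner of Cdk7, passed in set 1 (adjusted p = 0.0290) and not over 56 arrays (adjusted p = 0.0921). Among pocket proteins and E2F factors, 6 of 12 rose and 1 fell. The largest slopes were those of the repressive E2F factors E2f7 and E2f8, 0.30 ± 0.023 and 0.28 ± 0.022, followed by the E2F partner Tfdp1 at 0.19 and the pocket protein Rbl1 at 0.13. E2f3 and E2f2 also rose, E2f2 not in set 1 (adjusted p = 0.104). Rb1, the retinoblastoma gene, was the member that fell, by 0.13 ± 0.029 (limma adjusted p = 0.000342), but with the 12 arrays of high 18S signal added its slope was 0.12 (adjusted p = 0.0181). In array set 1 the list had 5 higher and 2 lower, where Rbl2 joined Rb1 with a slope of -0.076 (adjusted p = 0.0240).

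Of the 4 other CDK inhibitors, Cdkn3, a phosphatase of Cdk1 and Cdk2, rose by 0.22 ± 0.031 and the others did not pass. Of 9 genes for the turnover of cyclins and inhibitors, 3 rose: Skp2, which marks p27 for destruction, by 0.32 ± 0.037, its cofactor Cks1b by 0.13 and the anaphase-promoting complex activator Fzr1 by 0.12, which did not pass in set 1 (adjusted p = 0.238). There Fbxo4 and Foxo1 were lower, with slopes of -0.080 and -0.13 (adjusted p = 0.0160 and 0.00617). Of 9 genes upstream of G1, the transcription factor Myc rose by 0.20 ± 0.041 and the polycomb methyltransferase Ezh2 by 0.19 ± 0.026. Of 11 p53 target genes, Gtse1, itself a cell cycle gene that restrains p53, rose by 0.14 and the rest did not pass. All 25 DNA replication genes rose, and 23 of 25 in set 1, where Tk1 and Tyms did not pass (adjusted p = 0.0526 and 0.0650). These counts stand against the 16.1% of tested genes called higher and 9.62% called lower, and each list was chosen with results of these data known.

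**Figure D3:**
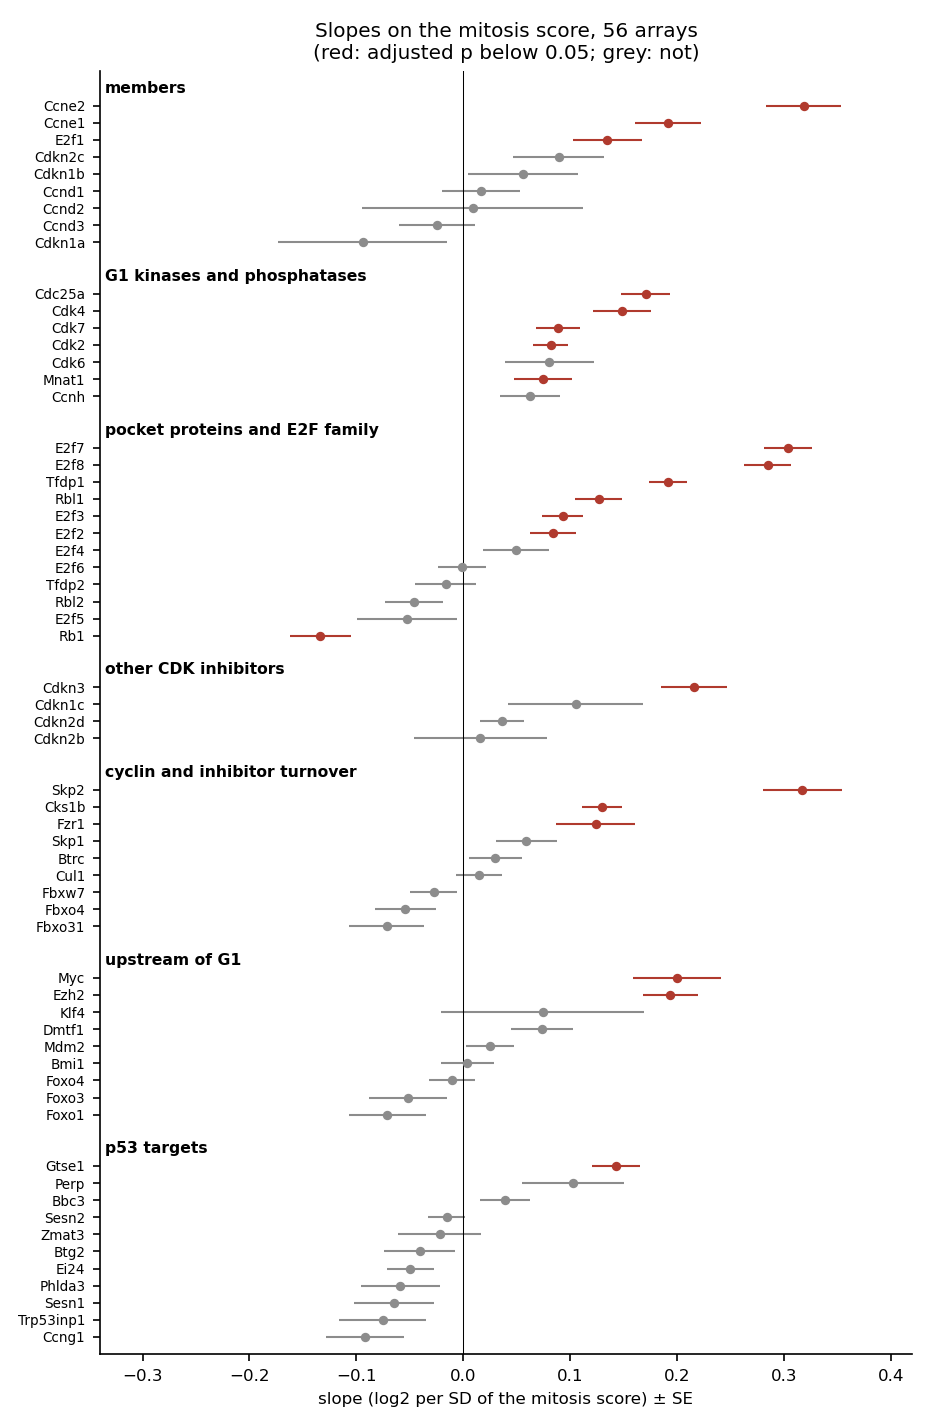
Slope on the mitosis score (log2 per SD, horizontal axis, bars ± SE, 56 arrays) of the 9 tested genes and of the genes of 6 pathway lists, red where the adjusted p was below 0.05. Ccne2, E2f7, E2f8 and Skp2 lie furthest to the right, at 0.28 to 0.32, and Rb1 at -0.13 is the red point left of 0.

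Pairs of the 9 tested genes were then compared, counting a pair only where each gene was called in the limma fit of all genes on the other. Of 36 pairs, 6 were called. The share of all tested genes called in such a fit was 13.2% for Ccnd1, 2.44% for Ccnd2, 46.1% for Ccnd3, 23.5% for Ccne1, 28.9% for Ccne2, 10% for Cdkn1a, 8.31% for Cdkn1b, 1.1% for Cdkn2c and 39.2% for E2f1. Ccne1 and Ccne2 rose together (r = 0.560, rho = 0.498, permutation p = 2e-05 and 0.0001, r = 0.447 without 2 arrays), and also in set 1 (r = 0.670, rho = 0.638, adjusted p = 0.000407 and 9.20e-05). Ccne1 and E2f1 rose together (r = 0.487, rho = 0.404, permutation p = 0.00018 and 0.00223, r = 0.499 without 2) but did not pass in set 1 (r = 0.423, rho = 0.387, adjusted p = 0.0730 and 0.0597). Ccne2 and E2f1 were called in set 1 (r = 0.471, rho = 0.446, adjusted p = 0.0208 and 0.0322) and not in the fit over 56 arrays without further terms (r = 0.151, rho = 0.212, permutation p = 0.262 and 0.117, r = 0.0831 without 2). With the array sets as terms over 56 arrays, 5 pairs were called. Ccne1 with E2f1 (limma adjusted p = 0.000386 and 0.000978) and Ccne2 with E2f1 (0.000154 and 0.000675) were among them. Of the 6 pairs, Ccnd3 with E2f1 (0.641 and 0.615) and Ccnd1 with Cdkn1a (0.123 and 0.0744) were not.

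Ccnd3 was lower where Ccne2 was higher (r = -0.469, rho = -0.430, permutation p = 0.00021 and 0.00097, r = -0.401 without 2), also in set 1 (r = -0.466, adjusted p = 0.0150 and 0.0209). Ccnd3 and E2f1 rose together over all arrays (r = 0.501, rho = 0.402, permutation p = 7e-05 and 0.00232, r = 0.482 without 2). In set 1 they did not pass (r = 0.135, adjusted p = 0.599 and 0.621), and both are highest in set 4. Ccnd1 and Cdkn1a rose together (r = 0.429, rho = 0.484, permutation p = 0.00098 and 0.00019, r = 0.388 without 2), with r of 0.325 in set 1 where the pair did not pass (adjusted p = 0.316 and 0.197). The INK4 inhibitor Cdkn2c was lower where Cdkn1a was higher (r = -0.449, rho = -0.539, permutation p = 0.0005 and 5e-05, r = -0.396 without 2). In set 1 r was -0.602 and rho -0.668 (adjusted p = 0.00531 and 0.0231). Cdkn2a, which did not pass the filter, was fitted as a predictor, and 5.65% of tested genes were called on it, Ccnd1 and Cdkn1a among them (adjusted p = 0.0117 and 0.0198), though not in set 1 (adjusted p = 0.241 and 0.259), where 0.00796% of genes were called.

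Cdkn1a was also set against the p53 target list, the genes known to respond to the same factor. Of 11 targets 4 rose with Cdkn1a and 0 fell, where 3.57% of tested genes were called higher and 6.47% lower. At an unadjusted p below 0.05, 5 targets were higher and 1 was lower, Sesn1, with a slope of -0.10 (limma adjusted p = 0.0557). Zmat3, an RNA-binding p53 target, rose by 0.17 ± 0.033 (log2 per SD of Cdkn1a, limma adjusted p = 0.000899), over values of 7.14, 7.56 and 8.69 at the lowest, median and highest tumour. The tumour of animal 3572 was highest in both Zmat3 (8.69) and Cdkn1a (10.66), and the relation without it was not computed. Perp, a p53 target in epithelial junctions, rose by 0.21 ± 0.042 (adjusted p = 0.00114), over 9.38, 9.80 and 11.24. Its highest tumours, 4980 and 2703 at 11.24 and 11.12, had Cdkn1a of 9.71 and 9.87. Phlda3, an inhibitor of Akt, rose by 0.12 and Trp53inp1, a stress protein, by 0.13 (adjusted p = 0.0138 and 0.0207). In array set 1, 4 of 11 targets were again called higher, where 2.56% of tested genes were called higher and 3.32% lower. Upstream, Mdm2, the ubiquitin ligase of p53, rose by 0.070 ± 0.021 (adjusted p = 0.0231) but not in set 1 (adjusted p = 0.0586). Among other inhibitors Cdkn2b, the neighbour of Cdkn2a, rose by 0.20 ± 0.057 (adjusted p = 0.0145, and 0.0484 in set 1). In limma 0 of the 28 mitosis and 0 of the 25 replication genes passed over 56 arrays, with 4 and 6 lower at an unadjusted p below 0.05, and in set 1 4 mitosis and 3 replication genes were lower where Cdkn1a was higher, beside the 3.32% of all genes.

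**Figure D4:**
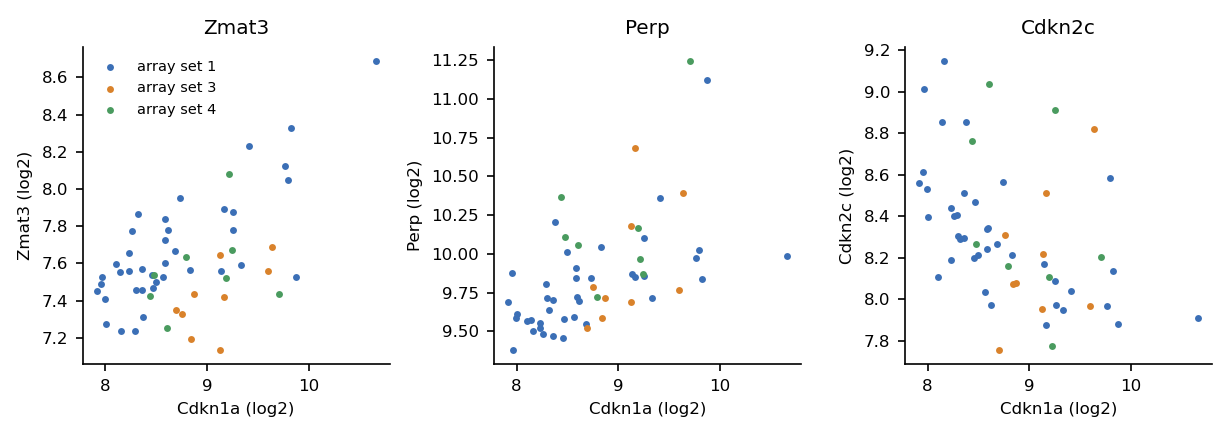
Values (log2, vertical axes) of Zmat3, Perp and Cdkn2c against Cdkn1a (log2, horizontal axis) in the 56 tumours, coloured by array set. Zmat3 and Perp are higher and Cdkn2c is lower where Cdkn1a is higher.

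Marker lists gave a score for each of 10 cell types, and 22 of the 90 combinations of a gene and a score passed. Each score called between 3.62% (skin) and 41% (luminal epithelium) of all tested genes, so this count is not by itself a trait of the 9 genes. Ccnd2 rose with the basal epithelium score by 0.46 ± 0.084 (log2 per SD, limma adjusted p = 0.000413), where 3.64% of tested genes were called. Pearson's r was 0.588 and Spearman's rho 0.438, and r was 0.498 without the 2 arrays farthest from the median score. It also rose in array set 1, by 0.39 (adjusted p = 0.0101), and without the 2 tumours highest in Ccnd2, by 0.29 ± 0.070 (adjusted p = 0.0111, n = 54 arrays). All 7 basal markers lay above the filter, with a mean level of 7.36, 8.16 and 9.16 at the lowest, median and highest tumour. Of these, the contractile genes Acta2 and Mylk passed in the fit on Ccnd2 and the keratins Krt5, Krt14 and Krt17, Trp63 and Oxtr did not. Acta2 was among the 3 genes most like Ccnd2 of all tested, with r of 0.736 over 56 arrays, beside Hmcn1 at 0.747 and Kcnk2 at 0.740. The tumours of 3854R and 3569, which stood apart in Ccnd2, also stood apart in Acta2, at 12.65 and 12.46, with the third highest at 11.43. Without them r with Acta2 was 0.517 (limma adjusted p = 0.00713), and Mylk did not pass (adjusted p = 0.174). In set 1 the closest were the basement membrane genes Col4a2 and Lamc1, at 0.812 and 0.806. Smooth muscle and pericytes also express Acta2 and Mylk, and their part in the result was not tested.

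On the luminal epithelium score, which called 41% of tested genes, Ccnd3 rose by 0.17 ± 0.027 and in set 1 by 0.12 (adjusted p = 0.00149). With the array sets as terms its slope was 0.092 (limma adjusted p = 0.0122). The score itself had a mean of -1.04 in set 3 and 0.99 in set 4. Ccnd2, Ccne1 and Ccne2 fell by 0.31, 0.10 and 0.21, and did not pass in set 1 (adjusted p = 0.865, 0.426 and 0.0785). With the array sets as terms they did pass as lower (limma adjusted p = 0.0282, 0.0455 and 0.0115). With the probe set of largest SD the slope of Ccne1 was 0.017. The 10 luminal markers had a mean level of 10.11 to 11.42. Of them, Ehf, Elf5 and Esrp1 did not pass in the fit on Ccnd3, which called 46.1% of tested genes, and the other luminal markers did. On the macrophage score, which called 29.1% of genes, 5 of the 9 were lower: Ccnd1 by 0.16 ± 0.031, Cdkn1a by 0.29 ± 0.070, and Ccne1, Ccne2 and E2f1 by 0.14, 0.14 and 0.099. The 11 macrophage markers had a mean level of 7.89 to 9.97, all above the filter. The same 5 genes were lower with the fibroblast and matrix score, which called 21.4% of genes. In set 1 Cdkn1a was lower with both scores, with slopes of -0.28 and -0.31 (adjusted p = 0.0345 and 0.0167), and Ccnd1 with the macrophage score (-0.10, adjusted p = 0.0326). The other slopes of the 5 genes on these scores did not pass there (adjusted p = 0.0525 to 0.696). With the array sets as terms those slopes passed (limma adjusted p = 0.0059 to 0.0304), except that of Ccne1 on the macrophage score (0.0824).

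Ccnd1, Ccne1 and Cdkn1a were also lower where the endothelium score (31.4% of genes called) and the adipocyte score (17.4%) were higher. For Cdkn1a the slopes were -0.29 and -0.30, and they passed in set 1 too (adjusted p = 0.0195 and 0.0418). Ccnd1 passed in set 1 with the endothelium score (adjusted p = 0.0415) and not with the adipocyte score (adjusted p = 0.333), and Ccne1 with neither (adjusted p = 0.322 and 0.536). Cdkn2c was higher with both scores in set 1, with slopes of 0.14 on each (adjusted p = 0.0225 and 0.0202), and Ccnd2 with the endothelium score, by 0.27 (adjusted p = 0.0460). Ccnd1 was lower with the skeletal muscle score (11.1% of genes called) by 0.10, with an adjusted p of 0.0478, and 0.113 in set 1. The scores for T and NK cells, B and plasma cells and skin called 22.3%, 7.09% and 3.62% of genes and 0 of the 9, of which 3, 4 and 1 had an unadjusted limma p below 0.05. Of the T and NK markers 7 of 12 measured lay above the filter, with Cd2, Cd5, Gzma, Il2rb and Trat1 below it. Whether non-tumour cells in the piece set any of these slopes was not tested.

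**Figure D5:**
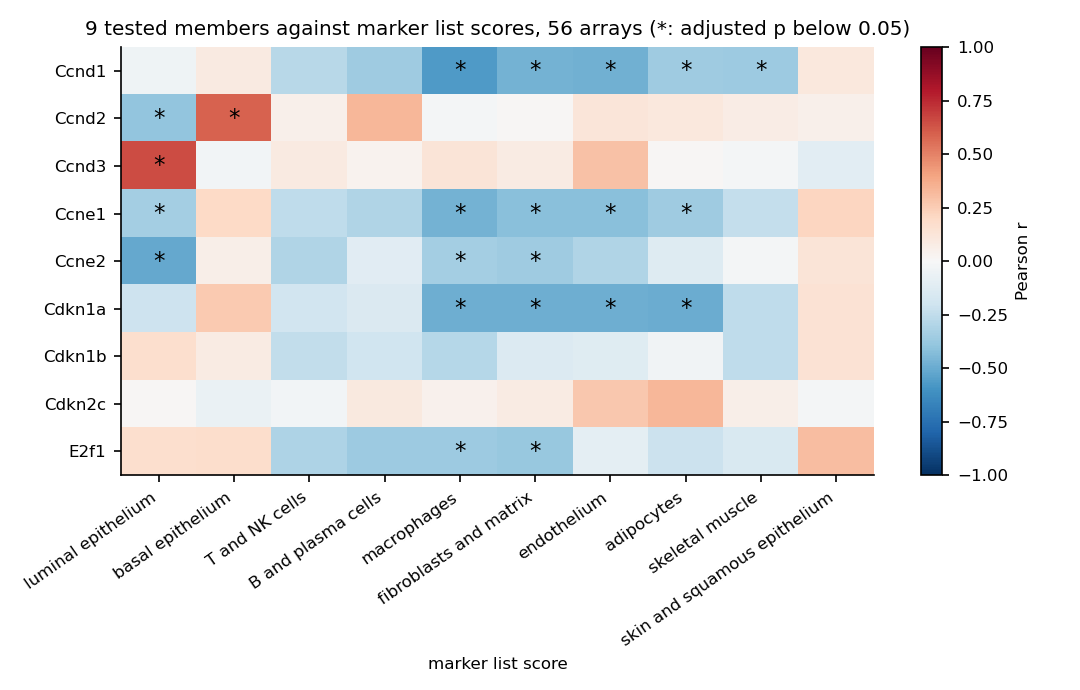
Pearson's r of each of the 9 tested genes (rows) with each of 10 marker list scores (columns) over 56 tumours, red for positive and blue for negative, with a star where the limma adjusted p was below 0.05. Ccnd2 with basal and Ccnd3 with luminal epithelium are the red cells with a star, and Ccnd1 and Cdkn1a are blue with macrophages, fibroblasts, endothelium and adipocytes.

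The genes most like each of the others were sought among all tested genes. Ccne2 was closest to the spindle checkpoint gene Mad2l1 (r = 0.884 over 56 arrays), the condensin subunit Ncaph (0.878) and the anaphase activator Cdc20 (0.873), and most opposed to Ace (-0.733), while in set 1 Ercc6l and Cep55 came first at 0.921 and 0.914. Ccne1 was closest to Dnajc2 (0.796), the centriole gene Stil (0.769) and Dazap1 (0.763), and in set 1 to Ddx39a, the histone chaperone Asf1b and the origin recognition gene Orc1 (0.781, 0.776 and 0.766). E2f1 was closest to Enkd1, Epop and Nfx1 (0.822, 0.816 and 0.815), while in set 1 Myc came first at 0.711. Ccnd3 was closest to Capn1, Ehmt2 and Fkbp8 at 0.913, 0.908 and 0.907, which had 0.855, 0.841 and 0.799 in set 1.

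Cdkn1a was closest to Krt23, Tnfsf9 and Bambi (0.670, 0.668 and 0.656) and most opposed to Duox1 (-0.694), and in set 1 Zmat3 came first at 0.768. Ccnd1 was closest to Rtn1, the prostaglandin transporter Slco2a1 and Cdca7l (0.676, 0.665 and 0.653) and most opposed to the interleukin receptor chain Il10rb (-0.680), and in set 1 Adamts8 came first at 0.668. Cdkn1b was closest to Baz2a, Cnnm3 and Tpcn1 (0.692, 0.682 and 0.680), which had 0.376, 0.534 and 0.491 in set 1. Cdkn2c was closest to Grtp1 and the mitochondrial genes Etfa and Sdha (0.639, 0.579 and 0.559), and in set 1 to Ucp3 (0.738). Cdkn2a was closest to Vwc2, Wdr35 and Adamts1 (0.564, 0.558 and 0.555), and in set 1 to Lims1 (0.603).

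The labels distinguish tumours only by the title mark R and by the number of the animal, and both were fitted together. For R, Ccne1 was higher by 0.41 ± 0.089 and Ccnd1 by 0.26 ± 0.095, and Ccnd3 was lower by 0.37 ± 0.081 (limma adjusted p = 0.000292, 0.0282 and 0.000227). The means were 7.47 ± 0.20 in R arrays and 7.07 ± 0.27 in the others for Ccne1, and 8.24 ± 0.09 and 8.62 ± 0.25 for Ccnd3 (SD, n = 8 and 48). That is 3 of 9 genes, where 34.5% of tested genes were called. For the upper against the lower number range, 5 of 9 were called, where 24.8% of tested genes were. E2f1 was higher by 0.33 ± 0.070, Cdkn1b by 0.37 ± 0.10, Ccne1 by 0.28 ± 0.071 and Ccnd3 by 0.22 ± 0.064, and Ccnd2 was lower by 0.59 ± 0.22 (adjusted p = 0.0421). The means of E2f1 were 6.21 ± 0.37 in upper and 5.88 ± 0.16 in lower numbers (SD, n = 15 and 41). With the probe sets of largest SD, Ccne1 and Ccnd1 did not pass for R (adjusted p = 0.720 and 0.116), and for number range Ccnd3 had -0.10 and Cdkn1b -0.15. The 8 R arrays lie in array set 3 with 1 array without the mark, so R and set 3 cannot be told apart. Set 4 holds 8 upper numbers, and set 1 holds 4 upper and 35 lower ones. Within set 1, E2f1 had a mean of 5.95 ± 0.22 in upper and 5.88 ± 0.16 in lower numbers, Cdkn1b 8.66 ± 0.35 and 8.56 ± 0.33, Ccnd3 8.58 ± 0.13 and 8.55 ± 0.20, Ccne1 7.27 ± 0.44 and 6.99 ± 0.20, and Ccnd2 7.35 ± 0.43 and 7.79 ± 0.68 (SD, n = 4 and 35). For E2f1, Cdkn1b and Ccnd3 these differences are below the SD of either range.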

How the data were processed

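Per the labels' protocols, total RNA of mammary tumours was labelled with biotin and put on Affymetrix arrays. The 68 arrays carry 66 animal numbers, since 3296 and 3351 each appear with and without the R mark. The authors' deposited values were made with RMA, per the submitters' processing notes. Settings, version and log base were not stated in what was used here, so that log2 is read from the range of the deposited values, 1.68 to 14.57. The number of arrays limits the precision. Genes came from the platform annotation (34958 probe sets with 1 gene, 932 with several, 9211 of 45101 not listed), updated by RefSeq GRCm38.p6. Each gene was its probe set with the highest mean over the 56 arrays. All genes were fitted on each score with limma 3.58.1 (R 4.3.3), leaving out the genes of the score, with Benjamini-Hochberg adjustment over all genes at 0.05. The 56 arrays carry 56 animal numbers, and p-values measure the spread between these tumours. Some genes of the lists were not analysed here. The named genes are all 10 members, their 3 most alike and 1 most opposed genes, called genes of the pathway lists (up to 4 a list, further ones named after their values were seen), 4 leading mitosis genes and markers of called scores. Members and lists were chosen with earlier results of these data known. Scripts were tested on simulated data.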

Additional observations from a re-analysis of the deposited data

How the results depend on the processing

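Ccne2 and Ccne1 kept direction and call on the mitosis and DNA replication scores under all 15 alternatives, and E2f1 in 14 of 15 on mitosis and 13 of 15 on replication. Adding the 12 arrays left out, with animals averaged, called 8725 genes on mitosis and 8701 on replication, against 3222 and 2959, and called Ccnd1 too (slopes 0.22 and 0.23). There, slopes on mitosis turned positive for Rb1 (0.12), Rbl2 (0.13), Fbxo4 (0.36), Fbxw7 (0.18), Foxo1 (0.26), Btg2 (0.11), Ccng1 (0.28) and Ei24 (0.086). With cell type scores as terms, 1785 genes were called on replication. In array set 1 alone, 11 of 90 combinations with cell type scores passed, against 22, with fewer samples. The share of all genes called on these scores in set 1 is not given here. With the probe set of largest SD, 3 genes rather than 5 were called for number range. With it Ccne1 on luminal epithelium was 0.017, Cdkn1b was -0.52 for R and -0.15 for number range, Ccnd3 was -0.10 for number range, and Tfdp2 on mitosis was 0.13. Apart from the named constructions, the cause was not tested. The choice of probe set over all 68 arrays and the fits without the 2 tumours highest in Ccnd2 were added after seeing the data. Signal over background was not used here, so dim genes such as Cdkn2a are limited.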

Other observations

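Genes within 10 Mb of each member on the same chromosome were read in the fits on that member, because animals of a backcross share long stretches of chromosome. For Ccnd3, on chromosome 17, 83 of 135 neighbours were called (61.5%), where 46.1% of all tested genes were, with 64 higher and 19 lower; in array set 1 43 were called (31.9%), where 22.3% of all tested genes were. Trip10 was the closest neighbour, with r of 0.866 over 56 arrays and 0.766 in set 1. For Cdkn2a, 5 of 44 neighbours on chromosome 4 were called (11.4%), where 5.65% of all tested genes were, and 0 in set 1, where 0.00796% of all genes were. For the other 8 genes the share of neighbours called over 56 arrays lay below the share of all tested genes. Neighbours are not independent of each other, and no test of these shares was made.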
